A study of Homo sapiens with 6 samples.

Results

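The 9 genes described here, AZIN1, NEIL1, COPA, FLNA, BLCAP, CYFIP2, IGFBP7, COG3 and F11R, give rise to transcripts that ADAR enzymes are known to edit in their coding sequence or untranslated regions. They were taken by name from the 58735 genes of the deposited count table, and each name matched a single row. The counts give transcript abundance and hold no measure of editing. RNA was sequenced after selection of polyadenylated RNA from 6 samples of KYSE410, an established oesophageal squamous cell carcinoma line grown in RPMI with serum. The 3 controls are labelled NC in their titles and wild type in their genotype. The 3 siADAR1 samples carry a knockdown of ADAR1 by small interfering RNA. Every sample has the treatment entry "No" and the same batch entry. The sequence and dose of the small interfering RNA, the time after its delivery and any treatment of the controls were not given in the sources used here, so effects of delivery, off-target binding and loss of ADAR1 cannot be told apart. Separate cultures are not mentioned in the labels, and p-values therefore cover the spread among these 6 samples alone, part or all of which may be technical.

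ADAR1 and its relative ADAR2, encoded by ADAR and ADARB1, convert adenosine to inosine in double-stranded RNA. Ribosomes read inosine as guanosine, so an edited codon can specify another amino acid, as in AZIN1, NEIL1, COPA, FLNA, BLCAP, CYFIP2, IGFBP7 and COG3. Most human sites lie outside codons, in inverted Alu repeats of introns and 3′ untranslated regions, and F11R is known for sites of this kind. Editing can change the protein, the splicing or the fate of a transcript, and the level of a transcript sets how much RNA is there to be edited.

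The windows below show where the recoded adenosine lies in 3 members that changed (BLCAP, COPA and COG3) and in the 2 tested members that did not pass (NEIL1 and FLNA). Each is the spliced reference transcript of GENCODE release 29, 25 bases read 5′ to 3′ on the sense strand, and the capital A marks the adenosine known to be edited. No window is shown for AZIN1, or for F11R, which has no recoding site among those looked up.
BLCAP, codons 2 and 5: atgtAttgcctccAgtggctgctgc
BLCAP, codon 15: tcctcatccccaAgcccctcaaccc
COPA: cgcgtttgggatAtttctggtctga
COG3: accattaaggaaAtttccctggacc
NEIL1: agttggggggcaAaggctacgggtc
FLNA: tttctagccttcAggagtcagggct
The BLCAP windows lie in exon 3 on the minus strand of chromosome 20 (GRCh38), at chr20:37519150-37519174 and chr20:37519119-37519143, and the changes they allow are Y2C, Q5R and K15R, counted from the start methionine. The COG3 window lies in exon 17 at chr13:45516224-45516248 on the plus strand, where editing replaces isoleucine by valine. The same replacement follows at the COPA site, base 160332454 of chromosome 1 in exon 6. The NEIL1 site, base 75353745 of chromosome 15 in exon 6, turns a lysine codon into an arginine codon. The FLNA site, base 154351582 of chromosome X in exon 43, turns a glutamine codon into an arginine codon. The COPA, FLNA and NEIL1 windows cross a splice junction, so their 25 bases are not contiguous in the genome. Over 10 recoding sites looked up in 7 of the genes (3 in BLCAP, 2 in IGFBP7), the base before the edited A was T at 3, A at 4, C at 3 and G at 0. G preceded 29.6% of all 4772 adenosines in the same coding sequences. No AZIN1 site was among the 10, so neither value covers that member. ADAR enzymes are known to disfavour G at that position, and these sites were chosen because they are edited, so the count describes them and tests nothing.

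Library totals ran from 15175619 to 17329443 counts, and 15294 genes had enough counts to be tested. The knockdown target was examined first. ADAR stood at 456, 432 and 444 counts-per-million (CPM) in control replicates 1 to 3 and at 92.8, 95.7 and 77.6 CPM in siADAR1, or 20% of control (log2 fold change -2.32 ± 0.09 SE, edgeR adjusted p = 1.06e-08). ADARB1, which could edit some of the same sites, had 20.7 ± 2.24 CPM (SD, n = 3) in control and 24.3 ± 2.56 in siADAR1, a difference that did not pass the test (log2 fold change 0.23 ± 0.13, edgeR adjusted p = 0.161). Of 9 markers of squamous epithelium or of epithelium in general, TP63, KRT17, CDH1 and EPCAM were above 100 CPM in both groups. KRT5 and DSG3 were above 20, and KRT14, a basal keratin, was near 0 (means of 0.0219 and 0.0588 CPM). Of the 8 tested markers 3 rose and 3 fell, among them KRT6A, from 26.3 to 5.61 CPM. Of 12 markers of leukocytes, endothelium, fibroblasts and glandular epithelium, 10 had too few counts to be tested, with CD3E, DCN and VIL1 at 0 counts, while COL1A1 had 15.9 CPM in control and 21.5 in siADAR1 (edgeR adjusted p = 0.041). The part of these shifts in the results below was not tested. The libraries numbered 1 stood apart on the second principal component, at 36.1 and 15 against -19.6 to -8.07 for the others.

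Of the 9 transcripts, 7 had enough counts to be tested, and 5 of these 7 (71.4%) changed at an adjusted p below 0.05. Across all tested genes 51.0% changed, so a change in an edited transcript was not unusual in itself. AZIN1 and COG3 rose and COPA, BLCAP and F11R fell. The shares were 28.6% higher and 42.9% lower, against 26.0% and 25.0% of all genes, and 7 genes are too few to set these shares apart. The median log2 fold change of the 7 was -0.25, beside 0.00469 for all tested genes. Each called change was between 0.30 and 0.63 in size on the log2 scale, below that of ADAR. The groups did not overlap in 5 of the 7, as in 60.3% of all tested genes. With library totals alone the all-gene median was 0.12. Relative to that median, the 7 log2 fold changes were within 0.01 of those given here. A change of scaling shifts all genes nearly alike, so this closeness follows from the arithmetic and tests nothing. The call of COPA was lost under library totals (edgeR adjusted p = 0.068).

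**Figure D1:**
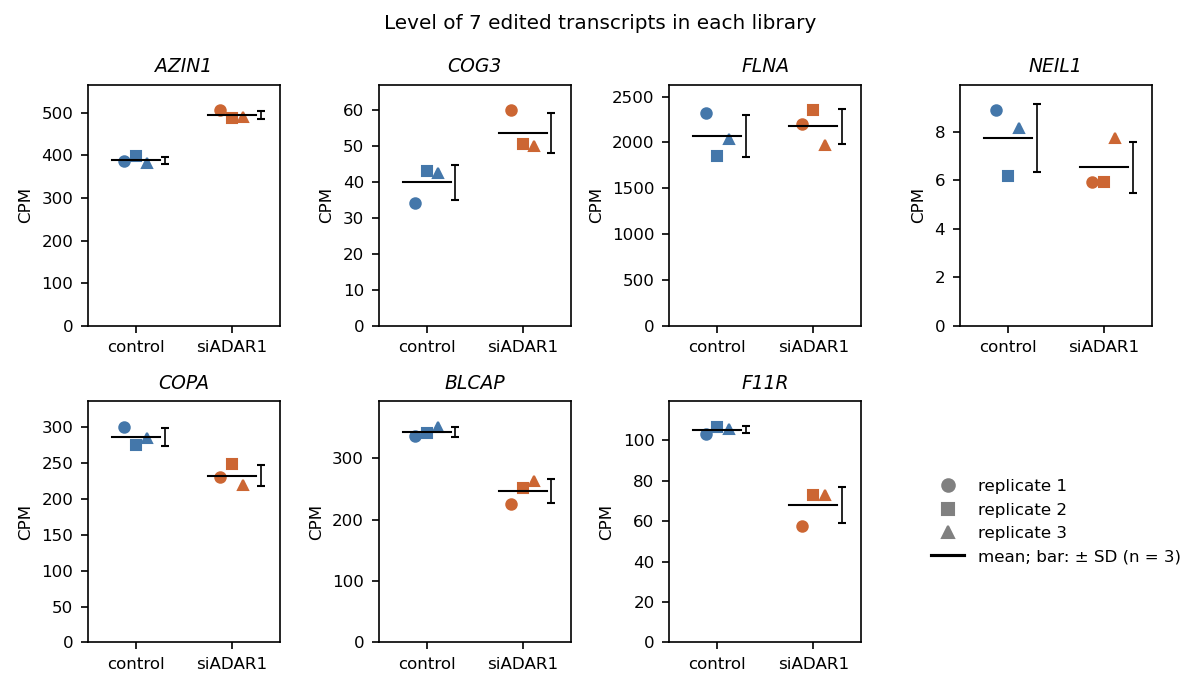
Level in counts-per-million (CPM, vertical axis from 0) of the 7 tested transcripts in each control and siADAR1 library. Symbols mark the replicate number, the line is the mean and the bar beside it ± SD (n = 3). AZIN1, COG3, COPA, BLCAP and F11R have groups that do not overlap, and FLNA and NEIL1 have groups that do.

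The transcripts that rose were AZIN1 and COG3. AZIN1 (ENSG00000155096, chromosome 8, 102826357 to 102893864, minus strand) encodes antizyme inhibitor 1, which binds antizyme and so spares ornithine decarboxylase, the first enzyme of polyamine synthesis, from degradation. Its level was 388, 398 and 381 CPM in control replicates 1 to 3 and 506, 487 and 491 CPM in siADAR1. Every siADAR1 library was above every control library, and the spread within each group was small, with a coefficient of variation of 2.13% in control and 2.01% in siADAR1, near the 1.29% and 1.11% that counting alone would give. AZIN1 reached 127% of control, with a log2 fold change of 0.35 ± 0.07 (SE, edgeR adjusted p = 0.00147) and a 95% interval of 0.19 to 0.50.

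COG3 (ENSG00000136152, chromosome 13, 45464898 to 45536630, plus strand) encodes a subunit of the conserved oligomeric Golgi complex, which tethers vesicles that recycle Golgi enzymes. It had 34.3, 43.1 and 42.5 CPM in control and 59.9, 50.6 and 50.1 CPM in siADAR1. The lowest control value and the highest siADAR1 value both came from libraries numbered 1, and the groups did not overlap. The log2 fold change was 0.42 ± 0.12 (SE, edgeR adjusted p = 0.00952), or 134% of control, with a 95% interval of 0.17 to 0.68. Without both libraries numbered 1 it was 0.23 (edgeR adjusted p = 0.0309, within 0.00222 to 0.0661 over all alternatives), and on FPKM without a filter the call was lost at the upper end of that range.

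The transcripts that fell were F11R, BLCAP and COPA. F11R (ENSG00000158769, chromosome 1, 160995211 to 161021348, minus strand) encodes junctional adhesion molecule A, an immunoglobulin-like protein of epithelial tight junctions. In the reference transcript the 3′ untranslated region takes 75.7% of its length, the largest share among the 9. F11R had 103, 107 and 106 CPM in the control libraries and 57.6, 73.1 and 73.0 CPM in siADAR1. The controls lay within counting error of each other (coefficient of variation 1.62%, where counting gives 2.47%), and siADAR1 replicate 1 was the lowest of all libraries. F11R stood at 64.5% of control, with a log2 fold change of -0.63 ± 0.10 (SE, edgeR adjusted p = 2.47e-04) and a 95% interval of -0.86 to -0.41. Without both libraries numbered 1 it was -0.54.

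BLCAP (ENSG00000166619, chromosome 20, 37492472 to 37527931, minus strand) encodes a small protein of 87 residues whose loss was described in bladder cancer and whose 5′ end holds the cluster of codons 2, 5 and 15 shown above. Its level was 336, 341 and 351 CPM in control and 225, 251 and 264 CPM in siADAR1. Every siADAR1 library was below every control, at a mean of 342.6 ± 7.76 CPM in control and 247 ± 19.5 in siADAR1 (SD, n = 3). The log2 fold change was -0.47 ± 0.08 (SE, edgeR adjusted p = 3.86e-04), or 72% of control, with a 95% interval of -0.65 to -0.30.

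COPA (ENSG00000122218, chromosome 1, 160288686 to 160343400, minus strand) encodes the alpha subunit of coatomer, the coat of vesicles that return proteins from the Golgi to the endoplasmic reticulum. It had 301, 276 and 285 CPM in control and 230.3, 248 and 219 CPM in siADAR1. The groups did not overlap, and their nearest libraries were control replicate 2 and siADAR1 replicate 2. COPA stood at 81% of control, with a log2 fold change of -0.30 ± 0.08 (SE, edgeR adjusted p = 0.00728) and a 95% interval of -0.48 to -0.13. The call was lost with library totals alone (log2 fold change -0.19, edgeR adjusted p = 0.068) and without siADAR1 replicate 3 (-0.26, adjusted p = 0.0502), where all alternatives gave 0.0013 to 0.068.

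FLNA and NEIL1 did not pass the test. FLNA (ENSG00000196924, chromosome X, 154348524 to 154374638, minus strand) encodes filamin A, which cross-links actin filaments and anchors them to membrane proteins. Its level was 2318, 1855 and 2037 CPM in control and 2204, 2349.7 and 1971 CPM in siADAR1, so the groups overlapped throughout. Counting error was 0.556% in control against a coefficient of variation of 11.3%, so depth did not set the precision of FLNA. Its log2 fold change was 0.07 ± 0.09 (SE, edgeR adjusted p = 0.555), with a 95% interval of -0.13 to 0.28. The intervals of AZIN1 (0.19 to 0.50) and COG3 (0.17 to 0.68) overlap it, and a difference between these genes was not tested. The sign of the FLNA value turned without control replicate 2, at -0.00536, and the value was 0.01 without siADAR1 replicate 2. It was 0.15 without control replicate 1, without siADAR1 replicate 3 and without both libraries numbered 1, where the edgeR adjusted p was 0.0954 (0.0954 to 0.974 over all alternatives).

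NEIL1 (ENSG00000140398, chromosome 15, 75346955 to 75357114, plus strand) encodes a DNA glycosylase that removes oxidised bases at the start of base excision repair. It had 147, 92 and 124 counts in control and 105, 93 and 122 in siADAR1, or 8.88, 6.19 and 8.15 CPM and 5.92, 5.92 and 7.76 CPM. The log2 fold change was -0.25 ± 0.20 (SE, edgeR adjusted p = 0.326), with a 95% interval of -0.68 to 0.19 that spans the size of the falls called in COPA and BLCAP. The value moved with single libraries, to -0.15 when control replicate 1 was left out, -0.39 when control replicate 2 was and -0.38 when siADAR1 replicate 3 was. It was -0.07 without both libraries numbered 1, and no alternative gave an adjusted p below 0.16. A change of the size called in COPA was not detectable in NEIL1 at this depth and spread, where counting alone gives a coefficient of variation of 9.09% in control and 18% was observed.

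**Figure D2:**
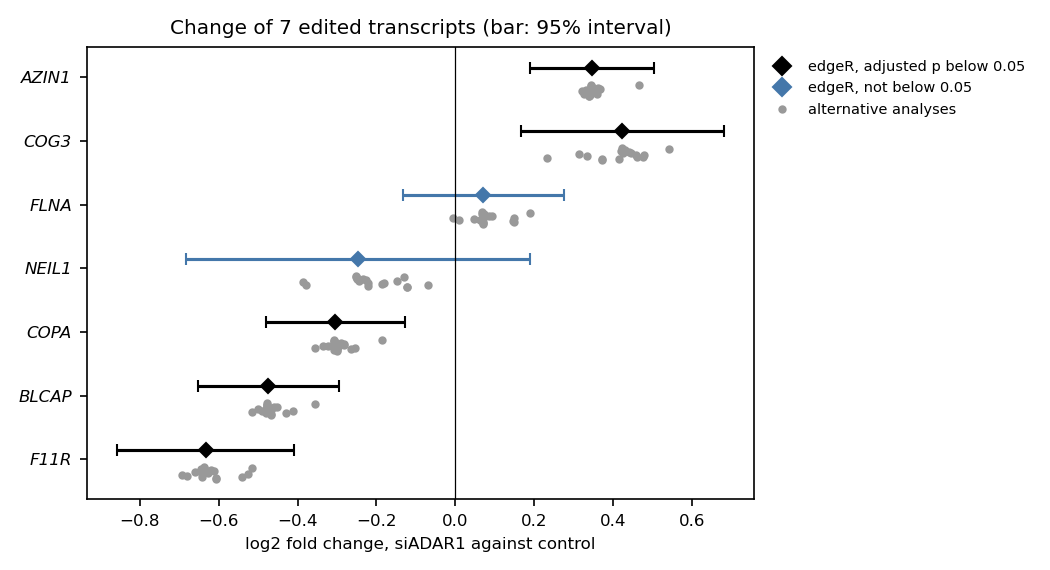
Log2 fold change of siADAR1 against control (horizontal axis) for the 7 tested transcripts. Diamonds are the edgeR estimates with their 95% interval and grey points the 18 alternative analyses of each gene: COG3 spreads from 0.23 to 0.54, and FLNA is the gene whose points cross 0.

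CYFIP2 and IGFBP7 were too low to be tested. CYFIP2 (ENSG00000055163, chromosome 5, 157266079 to 157395595, plus strand) encodes a subunit of the WAVE complex, which starts branched actin filaments. It had 6, 0 and 7 counts in control and 4, 0 and 8 counts in siADAR1, 13 and 12 in all. IGFBP7 (ENSG00000163453, chromosome 4, 57030773 to 57110385, minus strand) encodes a secreted protein that binds insulin-like growth factors. It had 0 counts in every control library and 0, 0 and 1 in siADAR1. A count of 0 allows up to 3 counts, or 0.169 to 0.202 CPM depending on the library, and covers counting error only. No fold change is given for either gene.

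Levels of different genes were compared per length, in the deposited FPKM (fragments per kilobase per-million). The length used includes exon bases shared with other genes, 36.6% in F11R and 26.4% in NEIL1. The effect of this on the levels was not tested. In the controls FLNA was the highest at 194 ± 21.6 FPKM (SD, n = 3). AZIN1 followed at 59.9 ± 1.29, BLCAP at 43.1 ± 1.01, COPA at 36.8 ± 1.57, F11R at 20.6 ± 0.357, COG3 at 6.58 ± 0.813 and NEIL1 at 1.10 ± 0.197. CYFIP2 came next at 0.0258 ± 0.0229 FPKM and IGFBP7 was listed at 0. No neighbours in this order overlapped in the controls except CYFIP2 and IGFBP7. The order was the same in siADAR1, but the spacing differed: BLCAP (31.0 ± 2.40 FPKM) and COPA (29.7 ± 1.94) now overlapped, and the ratio of AZIN1 to BLCAP went from 1.39 to 2.45. Between NEIL1 and CYFIP2 the mean level dropped 42.7-fold in control, a ratio that rests on 13 control counts of CYFIP2. The count filter itself parts tested from untested transcripts largely by level.

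**Figure D3:**
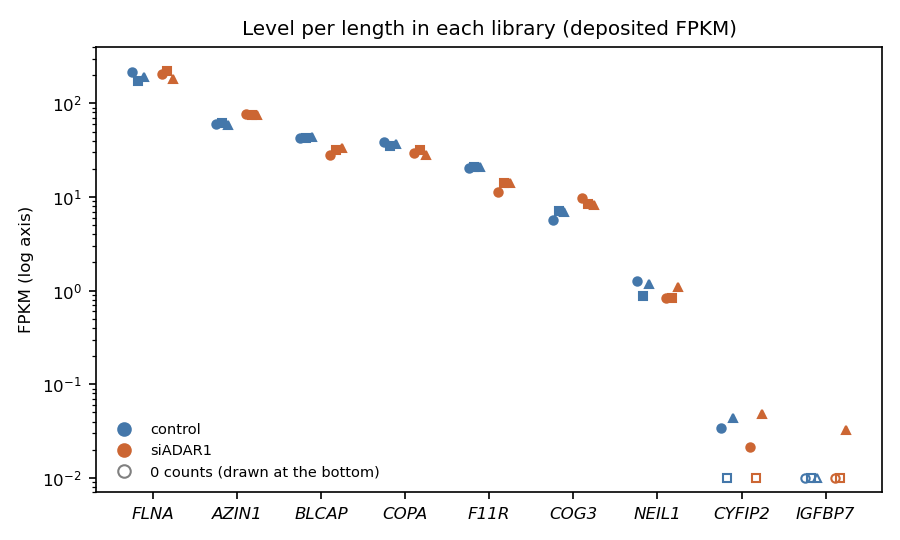
Deposited FPKM (log axis) of the 9 transcripts in each control and siADAR1 library, with a circle, square and triangle for replicates 1, 2 and 3. Open symbols at the bottom are libraries with 0 counts: CYFIP2 in both libraries numbered 2, and IGFBP7 in all libraries but siADAR1 replicate 3.

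Some members share exon sequence with neighbours, and whether the counting used strand or dropped shared reads was not given in the sources used here. The exons of NEIL1 share 1831 bases (26.4% of its exon bases) with MAN2C1, a gene for a cytosolic alpha-mannosidase on the opposite strand. MAN2C1 had 54.8, 38.8 and 45.6 CPM in control and 67.45, 56.3 and 52.3 CPM in siADAR1 (log2 fold change 0.34 ± 0.13 SE, edgeR adjusted p = 0.0508), about as large a shift as those of the members and opposite in sign to NEIL1. Reads of MAN2C1 assigned to NEIL1 would enter its value, and their share was not tested. F11R shares 1853 bases (36.6%) with AL591806.3, annotated on the same strand, which held 3 to 14 counts per library. COPA shares 129 bases (1.7%) with NCSTN, which encodes the nicastrin subunit of gamma-secretase on the opposite strand and fell by 0.27 ± 0.10 on the log2 scale (edgeR adjusted p = 0.0329). BLCAP shares 85 bases (1.1%) with NNAT, the neuronatin gene inside its intron, which fell from 6.55 ± 0.984 to 3.57 ± 0.718 CPM (SD, n = 3; log2 fold change -0.87 ± 0.23, edgeR adjusted p = 0.00587). AZIN1 shares 344 bases (5.4%) with the antisense gene AZIN1-AS1, at 34 counts over the controls and 80 over siADAR1 (edgeR adjusted p = 0.0348). AL109614.1, within BLCAP, and ADAM19, beside CYFIP2, did not pass the test, at log2 fold changes of -0.07 and 0.35. IGFBP7 shares 270 bases (14.0%) with POLR2B, a subunit gene of RNA polymerase II that had 7407 counts over the controls and fell to 45.4% of control, while IGFBP7 itself was listed at 0 in those libraries.

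The members were set beside genes of the same pathway or complex. The counts of each list are to be read against all tested genes, of which 26.0% rose and 25.0% fell. In the polyamine pathway 5 of 10 tested genes fell and 2 rose, and their median log2 fold change was -0.30, beside the rise of AZIN1. AMD1 and SMS, which make and use the aminopropyl donor for spermidine and spermine, fell by 0.61 ± 0.09 and 0.57 ± 0.10 (SE), and SAT1, which acetylates polyamines for export, rose by 0.84 ± 0.09. OAZ1, which encodes the antizyme that AZIN1 binds and is named after its value was seen, had a log2 fold change of -0.35 ± 0.08. ODC1, which encodes ornithine decarboxylase and is also named after its value was seen, did not pass (edgeR adjusted p = 0.0972). It had 878, 603 and 541 CPM in control (674 ± 179, SD, n = 3) and 1285, 908 and 816 in siADAR1 (1003 ± 249). The library numbered 1 was the highest in both groups. In the polyamine list 3 genes rose with limma-voom, with the replicate number as a block, without control replicate 1 and without both libraries numbered 1.

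Among the other 7 subunit genes of the COG complex 2 rose, COG4 by 0.65 ± 0.10 and COG2 by 0.61 ± 0.12 on the log2 scale (SE), and 5 did not pass. No COG gene fell in edgeR, DESeq2 or limma-voom, and 0 fell at an unadjusted p below 0.05 in edgeR. Without control replicate 1, 1 of them fell. COG6, the third by p, had a log2 fold change of -0.26 ± 0.13 (edgeR adjusted p = 0.10), and the median of the list was 0.10. COG3 therefore lay at 134% of control beside COG4 at 157% and COG2 at 152%.

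Of 9 tested genes for coatomer subunits and the GTPase that recruits the coat, 3 fell and 6 did not pass, beside the fall of COPA. ARF1, the GTPase gene, fell from 416 ± 24.1 to 268 ± 11.1 CPM (SD, n = 3), COPZ1 fell by 0.47 ± 0.10 on the log2 scale (SE) and COPB1 by 0.24 ± 0.09. None rose in edgeR, DESeq2 or limma-voom, nor at an unadjusted p below 0.05 in edgeR (0 genes). The list had a median of -0.13, or -0.00932 under library totals.

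For the tight junction list of F11R, 5 of 13 tested genes rose and 2 fell, with a median of 0.12. CGN, which encodes the cytoplasmic plaque protein cingulin, went from 52.3 ± 5.69 to 108 ± 3.66 CPM and TJP1, the ZO-1 scaffold to which the tail of F11R binds, from 213 ± 18.1 to 356 ± 28.9 CPM (SD, n = 3). CLDN4, a claudin, fell from 509 ± 37.9 to 357 ± 1.76 CPM. F11R thus fell while its scaffold gene rose. Among its paralogs, named after their values were seen, JAM3 had 3.18 CPM in control and 1.41 in siADAR1 (edgeR adjusted p = 0.0144), and JAM2 was too low to be tested.

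In base excision repair 8 of 16 genes fell and 2 rose, with a median of -0.32, where 25.0% of all tested genes fell and 26.0% rose. FEN1, a flap endonuclease also used in replication, fell by 1.46 ± 0.11 on the log2 scale (SE), the glycosylase gene NEIL3 by 1.06 ± 0.16 and the uracil glycosylase gene UNG by 0.85 ± 0.10. Leaving out control replicate 2, control replicate 3 or siADAR1 replicate 1 left 1 gene of this list higher.

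In the actin and adhesion list 7 of 11 genes fell and 0 rose, with a median of -0.26, where 25.0% of all tested genes fell and 26.0% rose. FLNA did not pass. DESeq2 called 6 lower and limma-voom 7, each with 0 higher, and 0 were higher at an unadjusted p below 0.05 in edgeR. ACTB, which encodes beta-actin, went from 9574 ± 640 to 3329 ± 528 CPM (SD, n = 3), ACTG1 fell by 0.52 ± 0.11 on the log2 scale (SE), and ACTN1, an actin cross-linker like filamin, by 0.45 ± 0.10.

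For the members that could not be tested, related genes were present. CYFIP1, the paralog of CYFIP2 in the WAVE complex, had 21.2 ± 0.935 FPKM in control and 22.4 ± 1.15 in siADAR1 (SD, n = 3) and did not pass the test (edgeR adjusted p = 0.412). In the WAVE list 2 of 9 tested genes rose, ABI1 by 0.54 ± 0.10 and BRK1 by 0.35 ± 0.09 (SE), and WASF3 fell at an edgeR adjusted p of 0.0477. Its call was lost, leaving 0 genes lower, when either of control replicates 1 and 3 or either of siADAR1 replicates 2 and 3 was omitted. It was also lost with DESeq2, library totals alone, no filter, a minimum count of 50, protein-coding genes alone and the FPKM fits, while 2 genes fell without both libraries numbered 1, and 4 rose with library totals alone. The median was 0.07. In the insulin-like growth factor list of IGFBP7, 2 of 6 tested genes fell, IGFBP6 by 0.66 ± 0.10 and IGFBP4 by 0.46 ± 0.12. IGF1R, the third by p, had a log2 fold change of 0.26 ± 0.12 (edgeR adjusted p = 0.084). None rose in edgeR, DESeq2 or limma-voom, and 1 was higher at an unadjusted p below 0.05 in edgeR. Without control replicate 3, siADAR1 replicate 1 or siADAR1 replicate 3, 1 rose, and without both libraries numbered 1, 2 rose. The median was -0.22.

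**Figure D4:**
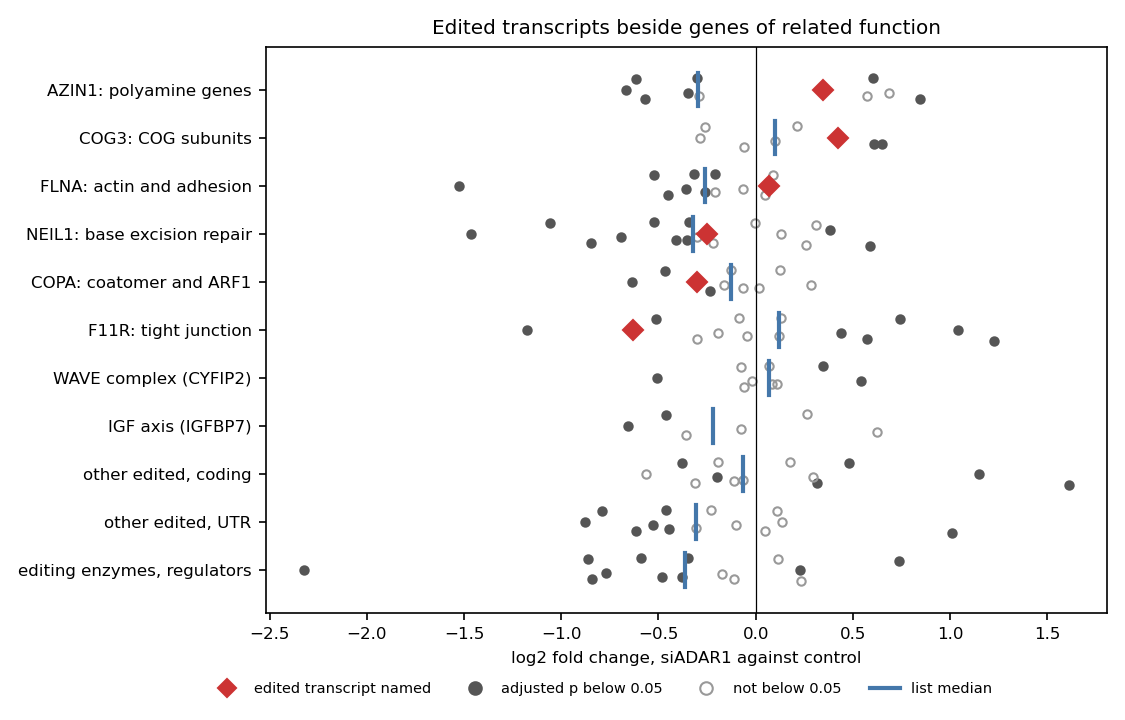
Log2 fold change (horizontal axis) of the tested genes of each list, filled where the edgeR adjusted p was below 0.05 and open where not, with the list median as a blue bar. Red diamonds are the edited transcripts: F11R at -0.63 lies below its list's median of 0.12, and AZIN1 at 0.35 above its list's median of -0.30.

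Of 20 further transcripts with coding sites 13 were tested, of which 4 rose and 2 fell, against 26.0% and 25.0% of all tested genes. HTR2C, a serotonin receptor gene, rose from 6.44 ± 0.583 to 14.3 ± 1.37 CPM and GRIK2, a kainate receptor gene, from 1.44 ± 0.317 to 4.39 ± 1.40 CPM (SD, n = 3). PODXL rose by 0.48 ± 0.13 on the log2 scale (SE), and MFN1, RHOQ and CCNI, named after their values were seen, had log2 fold changes of 0.31, -0.38 and -0.20. With library totals alone 0 fell. The same count of 0 was seen with no filter and when control replicate 2, siADAR1 replicate 2 or siADAR1 replicate 3 was left out. DESeq2, a minimum count of 50 and protein-coding genes alone gave 1 lower, as did leaving out control replicate 3 or siADAR1 replicate 1. Without control replicate 1, and without both libraries numbered 1, 3 fell. The list had a median of -0.07, or 0.05 under library totals. Of 13 transcripts edited in untranslated regions, the class of F11R, 6 fell and 1 rose, with a median of -0.31. The kinase gene EIF2AK2, whose product PKR binds double-stranded RNA, fell by 0.46 ± 0.09 and the proteasome gene PSMB2 by 0.45 ± 0.09, while AHR, the aryl hydrocarbon receptor gene, rose by 1.01 ± 0.11. With library totals alone 2 of these 13 rose.

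A further list held genes for proteins that edit RNA or are known to bind or regulate the editing enzymes. Of its 14 tested genes, ADAR included, 8 fell and 2 rose, and of the 13 left without ADAR, whose fall the knockdown set, 7 fell and 2 rose with a median of -0.35. STAU1 and ILF2, both for double-stranded RNA-binding complexes, fell from 400.2 ± 2.06 to 234.5 ± 15.7 CPM and from 302 ± 22.0 to 169 ± 10.7 CPM (SD, n = 3). WWP2 and AIMP2, both named after their values were seen and encoding factors known to lower editing enzymes, rose by 0.74 and 0.23 on the log2 scale. DESeq2 called 1 of the 14 higher, as did edgeR without control replicate 2, control replicate 3 or any single siADAR1 library, while library totals alone gave 4.

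Finally, the protein-coding gene with a mean of at least 10 CPM whose profile over the 6 libraries was closest to that of each member was found, as the Euclidean distance between log2 CPM values centred on each gene's mean. Over 9582 candidates (9583 for NEIL1) BLCAP was closest to TRIM21, at a distance of 0.0448, where the median candidate lay at 0.701. COPA was closest to SPR (0.0569), F11R to TM9SF2 (0.0611), AZIN1 to GSS (0.0678), COG3 to UTP3 (0.0778) and FLNA to TACC1 (0.103). TM9SF2 had 212, 211 and 213 CPM in control and 114, 149 and 151 in siADAR1, so that siADAR1 replicate 1 was the lowest library, as in F11R. NEIL1, with the fewest counts, had the most distant neighbour, UBE2L6 at 0.218. With 6 libraries in 2 groups, a short distance mostly reflects a like fold change, and these pairs are a description.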

How the data were processed

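Per the file headers, the deposited counts are per gene, and their values are whole numbers with no normalization. The deposited FPKM were made by the authors per library, and the authors' table of group means was not used. The submitters' processing notes list CASAVA, fastp and HISAT2 2.0.5 without their roles. Counting tool, strand setting, build and annotation were not given in the sources used here. Coordinates of all 58735 genes equalled those of GENCODE release 29 on GRCh38, which supplied transcripts and windows. Recoded codons were placed by their known codon numbers, and each was checked to encode the expected residue. Groups and replicate numbers came from the titles, and 0 columns were left without a sample.

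The count test was that of edgeR 4.0.16 (R 4.3.3). filterByExpr (minimum count 10) chose the genes, TMM (trimmed mean of M-values) factors scaled the libraries, and groups were compared by the two-sided robust quasi-likelihood F test with no covariate and Benjamini-Hochberg adjustment over all 15294 tested genes at 0.05. CPM use the TMM-scaled totals of the kept genes. The SE is the log2 fold change divided by the square root of F. Alternatives included DESeq2 1.42.0, limma 3.58.1 (voom, and limma-trend on FPKM with pseudocounts of 0.1 and 1), other scalings and filters, a replicate block and left-out libraries. Replicates of one group differed beyond counting error (chi-square per degree of freedom 4.15 to 19.9).

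The members and lists were chosen with earlier results of these data known. All 9 members, ADAR, the 3 smallest p of each list, overlapping genes with at least 1 CPM and the closest profile of each tested member were named by rule. No test was made over a list.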

Additional observations from a re-analysis of the deposited data

How the results depend on the processing

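Over 18 alternatives AZIN1, BLCAP and F11R kept their direction and their call, with log2 fold changes of 0.32 to 0.46, -0.52 to -0.36 and -0.69 to -0.52. The number of the 9 transcripts that rose was 2 and the number that fell 3, except that 1 rose on FPKM with a pseudocount of 1 and no filter, where the call of COG3 was lost (adjusted p = 0.0661), and that COPA was lost with library totals alone and without siADAR1 replicate 3. The cause was not tested. With 1 library left out at a time 2 rose throughout and 2 to 3 fell. FLNA, without a call, ranged from -0.00536 (without control replicate 2) to 0.148 (without control replicate 1) with 1 library left out. ADAR ranged from -2.38 to -2.20. Same-numbered libraries of both groups deviated together with correlations of 0.251, 0.0844 and 0.106. A library numbered 1 against one numbered 2 or 3 in the other group gave -0.169 to -0.13. Numbers 2 and 3 against each other gave 0.0917 and 0.0668. Deviations from a group mean cancel within the group for each gene, so these correlations are tied to each other. The libraries numbered 1 thus deviated alike only in part, at a correlation of 0.251. The correlations were not all above 0.1 and the numbers appear only in titles, so the main fit had no block. With the replicate number as a block, 2 members rose and 3 fell, and over all genes 4396 rose and 4186 fell against 3973 and 3831. Library totals alone gave 4892 genes higher and 2887 lower. The block also gave 2 genes of the insulin-like growth factor list higher and 1 COG gene lower. On FPKM with a pseudocount of 1 and no filter, 1 polyamine gene rose and 3 fell, 3 actin genes fell and 1 insulin-like growth factor gene fell, and 1 tight junction gene fell there and at a minimum count of 50. Depth limits CYFIP2 and IGFBP7, with at most 8 and 1 counts in a library. For NEIL1 the coefficient of variation (18% in control) was larger than that of counting (9.09%). NEIL1 ranged from -0.39 to -0.07 over all alternatives.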
